A study of Rattus norvegicus with 19 samples.

Results

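The enzymes described here make, use and dispose of S-adenosylmethionine and carry the sulfur of methionine through homocysteine to cysteine and taurine in the liver. They are the products of 9 genes of the 15400 named on the array, Mat1a, Gnmt, Ahcy, Bhmt, Cbs, Cth, Cdo1, Csad and Pemt. A probe was taken when the gene name in the scanner file, or the current symbol found through its accession or a synonym, was one of these 9. This gave 12 probes of 41012 non-control probes, and all 12 were named by accession. Mat1a, Bhmt and Pemt had 2 probes each and the other 6 genes had 1. All 12 lay well above background in Cy5 on all 19 arrays and none was saturated, so every member passed the filter on dim probes.

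The livers came from 19 male Wistar rats, housed singly, that received their diets for 4 months from 8 weeks of age and were killed fed, early in the morning. In the high protein group (6 rats) protein, mainly casein, made up 45% of dietary energy, carbohydrate 45% and fat 10%. The high fat group (6 rats) had 20% of energy from carbohydrate, 60% from fat and 20% from protein, and the control group (7 rats) had 70% from carbohydrate, 10% from fat and 20% from protein. The 2 test diets therefore differed from the control diet in different nutrients: protein took the place of carbohydrate in the first, and fat did so in the second. On each array the Cy5 channel held 1 rat and the Cy3 channel a common pool of liver RNA mixed in equal amounts, with no dye swaps, so each value is a log2 ratio to that pool and any dye effect is shared by all 19 arrays. The samples are separate animals, so the spread within a diet is biological and technical variation together.

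Methionine that reaches the liver is converted by methionine adenosyltransferase (Mat1a) to S-adenosylmethionine, the methyl donor of the cell. Transfer of the methyl group leaves S-adenosylhomocysteine, which is split to adenosine and homocysteine. Homocysteine is either methylated back to methionine or committed to cysteine by transsulfuration, and cysteine in excess is oxidised, in part to taurine. The liver is the main site of this pathway in mammals and the place where methionine taken in beyond need is broken down.

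Of the 9 genes, Cbs, Mat1a and Gnmt were those for which limma's F test over the 3 diets passed the threshold, so their promoters are shown as background to the values that follow. The sequences are the 250 bases before the gene start in RefSeq annotation of the rat build GRCr8, on the gene's own strand. Capitals mark matches, on either strand, to the motifs searched. The Cbs promoter lies at chr20:9733926-9734175 on the minus strand, the Mat1a promoter at chr16:17016918-17017167 on the plus strand and the Gnmt promoter at chr9:21752032-21752281 on the plus strand.
Cbs: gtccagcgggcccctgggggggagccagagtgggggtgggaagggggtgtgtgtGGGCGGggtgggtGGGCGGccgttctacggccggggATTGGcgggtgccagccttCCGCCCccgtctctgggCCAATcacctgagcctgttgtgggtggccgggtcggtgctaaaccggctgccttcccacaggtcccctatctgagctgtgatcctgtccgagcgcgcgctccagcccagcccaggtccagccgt
Mat1a: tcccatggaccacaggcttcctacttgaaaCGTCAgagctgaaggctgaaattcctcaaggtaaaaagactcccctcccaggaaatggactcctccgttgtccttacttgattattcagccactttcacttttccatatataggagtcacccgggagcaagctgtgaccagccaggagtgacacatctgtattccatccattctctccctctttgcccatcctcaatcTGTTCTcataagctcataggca
Gnmt: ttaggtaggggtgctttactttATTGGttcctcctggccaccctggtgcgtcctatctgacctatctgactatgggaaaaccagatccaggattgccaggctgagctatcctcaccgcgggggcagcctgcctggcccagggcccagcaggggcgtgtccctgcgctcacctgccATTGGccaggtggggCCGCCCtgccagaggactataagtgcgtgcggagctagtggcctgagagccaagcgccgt

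The 3 promoters were unlike in base composition. The Cbs promoter was 71.2% G and C with 17 CG pairs, and the Gnmt promoter was 62.4% with 10 CG pairs. The Mat1a promoter, at 48.0% with 3 CG pairs, lay below the median of the 33469 promoters in the table, which was 51.2% with 5 CG pairs. In capitals, Cbs holds 3 GC boxes (GGGCGG) and 2 CCAAT boxes, and Gnmt holds 2 CCAAT boxes and 1 GC box. Mat1a holds 1 cAMP response half-site (TGACG) and 1 glucocorticoid response half-site (TGTTCT) and neither of the other boxes.

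Promoters of 8 members were matched, and Cdo1 had none in the table. GGGCGG was found in 5 of 8 members (Ahcy, Cbs, Csad, Cth and Gnmt), against 30.5% of all promoters, and CCAAT in 5 of 8 (Bhmt, Cbs, Cth, Gnmt and Pemt), against 34.0%. TGACG was found in Mat1a and Pemt (18.2% of all promoters), TGTTCT in Mat1a (17.5%), the TATA box TATAAA in Bhmt (12.9%) and the E box CACGTG in Cth (5.6%). The forkhead site TGTTTAC (3.2%) and the HNF1 half-site GTTAAT (6.5%) were found in no member. These letter matches describe the sequence and were not tested against the diets. The searched windows are of equal length, and the marked matches in the 3 printed sequences do not overlap one another.

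The arrays were alike in quality with 1 exception. Between 53.7% and 67.1% of spots were well above background in Cy5, and the log ratios of an array had a standard deviation of 0.20 to 0.29, but of 0.45 in control 6. All 8 hepatocyte markers were measured, each well above background on every array, with a median between 0.22 and 0.50 in high protein livers, 0.19 and 0.34 in high fat livers and 0.11 and 0.40 in control livers. Of 15 lymphocyte markers 5 were measured, and their median was 2.26 in control 6 and between -1.13 and -0.59 in the other 18 livers. Hepatocyte markers in control 6 stood at 0.40, the highest of the controls. Of 5 adipocyte markers Cfd alone was measured and above background on all 19 arrays, and the defining Adipoq was so on 0. Of 5 pancreas markers Cela1 and Cel were above background on all 19, Pnlip on 3, Prss1 on 1 and Cpa1 on 0. In whole liver RNA, fewer cells of a type and less RNA per cell cannot be told apart. Each slide carried up to 4 arrays, and high protein and high fat livers shared only slide 1 of the 5 slides. Slides 1, 3 and 5 held 1 control liver each (control 1, control 3 and control 6), and slide 1 held 1 high fat liver (high fat 1).

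Cbs and Mat1a rose in high protein livers against control livers, and no member fell. The background is small here: 92 of 22258 features passed the test at an adjusted p under 0.05 (0.413%), 61 of them higher (0.274%) and 31 lower (0.139%), against 2 of 9 members, both higher. In both the livers of the groups did not overlap, which was so for 174 features (0.782%), 111 higher (0.499%) and 63 lower (0.283%). At an unadjusted p under 0.05 the members numbered 5 of 9, against 3177 features (14.3%). Their median difference was 0.26 on the log2 scale, against -0.01 over all features, and 7 of 9 were above 0, against 46.4% of all features. High fat livers stood otherwise: 0 of 9 members passed the test against control livers, where 807 features did (3.63%), 409 higher (1.84%) and 398 lower (1.79%), and 1 of 9 members had an unadjusted p under 0.05, against 15.8% of all features. No member's groups were free of overlap there, against 436 features (1.96%), 182 higher (0.818%) and 254 lower (1.14%). Between high protein and high fat livers, 2 of 9 members (again Cbs and Mat1a) were higher in high protein livers, against 1565 features called in either direction (7.03%), 808 higher (3.63%) and 757 lower (3.4%). Overlap was present for all 9 members, while 1109 features had none (4.98%), 609 higher (2.74%) and 500 lower (2.25%). By the F test over the 3 diets 3 of 9 members passed (Cbs, Mat1a and Gnmt), against 1461 features (6.56%). The comparisons of either test diet with control share the same 7 control livers, so their values are not independent.

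**Figure D1:**
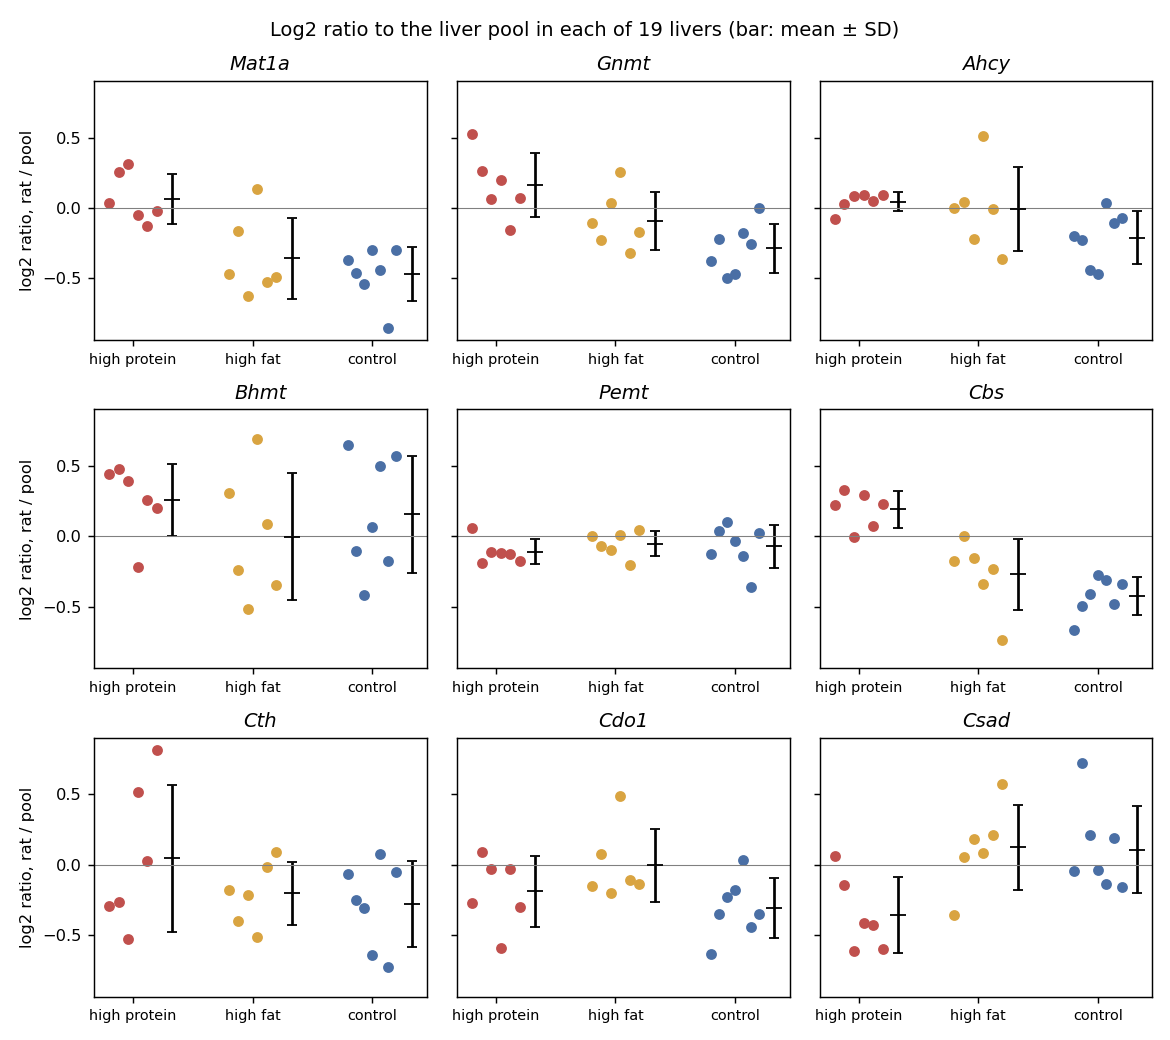
Log2 ratio to the liver pool (vertical axis) of the 9 members in each of 19 livers, 1 point a liver, by diet (high protein red, high fat yellow, control blue), with the mean and SD of each group as bars. For Cbs and Mat1a the high protein points all exceed the control points, and for Cth 2 high protein livers, at 0.82 and 0.52, stand above the other 17.

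Transsulfuration begins with Cbs, cystathionine beta-synthase, which joins homocysteine to serine and so commits it to cysteine. Its probe (A_42_P645923) lies at chr20:10047938-10047997 on the minus strand of rn4, the build of the array design. The Cbs log2 ratio had a lowest value of -0.0028, a median of 0.23 and a highest value of 0.33 in high protein livers. In high fat livers these were -0.73, -0.20 and 0.0037, and in control livers -0.66, -0.41 and -0.28. The high protein and control livers did not overlap, and 1 high fat liver (high fat 2) reached just above the lowest high protein liver (high protein 3).

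The high protein mean for Cbs was 0.19 ± 0.13 (SD, n = 6) and the control mean -0.42 ± 0.13 (SD, n = 7). Cbs rose by 0.62 ± 0.10 (log2, SE, limma adjusted p = 0.00868), which is 1.53-fold, with a 95% interval of 0.42 to 0.82. By p it ranked 8 of 22258 features. Within the slides that held both groups the difference was 0.92 on slide 1, 0.53 on slide 4 and 0.59 on slide 5. Slides 1 and 5 had a single control each, control 1 (the lowest control for Cbs) and control 6. With slide as a fixed block the difference was 0.64 (adjusted p = 0.0398). Without control 6 the value was 0.61 (adjusted p = 0.0134). The call held without any 1 of the 19 rats, at values between 0.58 and 0.65.

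Against high fat livers, Cbs was 0.46 ± 0.10 higher in high protein livers (log2, SE, limma adjusted p = 0.00699). This call too held without any 1 rat, at values between 0.37 and 0.52, but with slide as a fixed block the value was 0.43 and the adjusted p 0.145. On slide 1, the only slide with both diets, the difference was 0.44, resting on high fat 1 as its only high fat liver. High fat livers differed from control livers by 0.15 ± 0.10 (adjusted p = 0.478), with an interval of -0.04 to 0.35. The lowest Cbs value of all 19 livers was that of high fat 6.

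Cth, cystathionine gamma-lyase, splits cystathionine, the product of Cbs, to release cysteine. Its probe (A_44_P512874) lies at chr2:256069319-256069378 on the minus strand of rn4. Cth ran from -0.53 through a median of -0.12 to 0.82 in high protein livers, from -0.51 through -0.19 to 0.09 in high fat livers and from -0.73 through -0.25 to 0.08 in control livers. The high protein group spread most, since high protein 6 (0.82) and high protein 4 (0.52) were the highest of all livers and high protein 3 (-0.53) was among the lowest, while the other 2 groups covered much the same range. The difference from control was 0.32 ± 0.19 (log2, SE, adjusted p = 0.454), with an interval of -0.07 to 0.72. This difference was smaller than the pooled within-diet SD of 0.37. Without high protein 6 it was 0.17. Of Cbs and Cth, the consecutive steps of transsulfuration, the first passed the test and the second did not. The Cth interval held the 0.62 seen for Cbs, and the difference between the genes was not tested. High fat livers differed from control livers in Cth by 0.08 (interval -0.32 to 0.47).

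Mat1a encodes the catalytic subunit of the methionine adenosyltransferase of adult liver. The brighter of its probes (A_44_P493931) lies at chr16:17562657-17562716 and the other (A_44_P493938) at chr16:17562237-17562296, both on the plus strand of rn4. For the brighter probe the lowest, median and highest log2 ratios were -0.13, 0.01 and 0.31 in high protein livers, -0.63, -0.48 and 0.13 in high fat livers and -0.85, -0.44 and -0.30 in control livers. High protein livers all lay above the controls, and of the high fat livers high fat 4 (0.13) and high fat 2 (-0.17) lay above every control while only high fat 4 reached into the high protein range. Mat1a rose by 0.53 ± 0.12 in high protein livers (log2, SE, limma adjusted p = 0.0493), with an interval of 0.29 to 0.78.

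This call stands at the threshold. It was kept without 3 of the 19 rats taken in turn (control 7, high fat 3 and high fat 4) and lost without each of the other 16, with values between 0.47 and 0.57. Control 6, where lymphocyte markers were high, had the lowest Mat1a value, and without it the difference was 0.47 (adjusted p = 0.0680). The within-slide differences were 0.36, 0.43 and 1.00 on slides 1, 4 and 5, the last of these resting on control 6 as its only control, and with slide as a fixed block the value was 0.58 (adjusted p = 0.0975). The other Mat1a probe gave 0.54 ± 0.15 (adjusted p = 0.107), and its groups overlapped. That value comes from a fit of all 25313 kept probes, in which 0.446% were called for high protein over control, 3.45% for high fat over control and 7.09% for high protein over high fat.

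Against high fat livers Mat1a was 0.42 ± 0.12 higher in high protein livers (log2, SE, limma adjusted p = 0.0387), with overlap through high fat 4. The call was lost without high protein 1, 2, 3 or 6 and without high fat 1, 3, 5 or 6, at values between 0.37 and 0.44, and kept without each of the other 11 rats. With slide as a fixed block it was 0.50 (adjusted p = 0.243). On slide 1 the difference was 0.46, again resting on high fat 1 alone. The other probe gave 0.44 ± 0.15 (adjusted p = 0.0894). High fat and control livers differed by 0.11 (interval -0.14 to 0.35).

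Gnmt, glycine N-methyltransferase, spends S-adenosylmethionine on methylating glycine and is abundant in liver. Its probe (A_44_P484984) lies at chr9:10130178-10130237 on the plus strand of rn4. Gnmt ran from -0.16 through 0.13 to 0.52 in high protein livers, from -0.32 through -0.14 to 0.25 in high fat livers and from -0.50 through -0.26 to -0.0036 in control livers. All high protein livers but 1 (high protein 5) lay above every control. The difference from control, 0.45 ± 0.11 (log2, SE), missed the threshold over all features (adjusted p = 0.0765), with an interval of 0.22 to 0.67. It passed without control 7 (0.49, adjusted p = 0.0277) and without high protein 5 (0.51, adjusted p = 0.0464). The difference was 0.74, 0.14 and 0.33 on slides 1, 4 and 5, with control 1 the only control on slide 1 and control 6 the only control on slide 5. High protein and high fat livers differed by 0.25 (adjusted p = 0.207), and high fat and control livers by 0.20 (adjusted p = 0.403).

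Pemt, phosphatidylethanolamine N-methyltransferase, uses S-adenosylmethionine to make phosphatidylcholine. Its brighter probe (A_43_P11651) lies at chr10:46299911-46299970 and the other (A_44_P434462) at chr10:46302830-46302889, both on the minus strand of rn4. The brighter probe ran from -0.19 through -0.12 to 0.06 in high protein livers, from -0.20 through -0.03 to 0.05 in high fat livers and from -0.36 through -0.03 to 0.10 in control livers. The 3 groups covered nearly the same range, and control 6 was the lowest liver. High protein and control livers differed by -0.04 (interval -0.18 to 0.10), and high fat and control livers by 0.02 (interval -0.12 to 0.16). These are the narrowest intervals among the members, and they leave out differences of the size seen for Cbs in either direction. The other Pemt probe gave 0.03 and -0.02 for the same comparisons. Of the members that use S-adenosylmethionine, Gnmt and Pemt thus differed in how high protein livers stood to control livers, by 0.45 against -0.04, though this contrast between genes was not tested.

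Ahcy, adenosylhomocysteinase, removes the S-adenosylhomocysteine left by these methyl transfers. Its probe (A_43_P15271) lies at chr3:145545033-145545091 on the minus strand of rn4. Ahcy ran from -0.08 through 0.07 to 0.09 in high protein livers, from -0.36 through -0.0044 to 0.51 in high fat livers and from -0.47 through -0.20 to 0.04 in control livers. High protein livers were tightly grouped, and high fat livers held the highest value (high fat 4) and also a low one (high fat 6). The difference between high protein and control livers was 0.26 ± 0.11 (log2, SE, adjusted p = 0.291), with an interval of 0.03 to 0.48, and 0.17 with slide as a fixed block. High fat livers differed from control livers by 0.21 ± 0.11, with an interval of -0.02 to 0.43.

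Bhmt, betaine-homocysteine methyltransferase, returns homocysteine to methionine with a methyl group from betaine. Its brighter probe (A_44_P535284) lies at chr2:23923690-23923749, and the other (A_44_P360510) covers sequence within chr2:23924355-23926571, both on the minus strand of rn4. The brighter probe ran from -0.22 through 0.33 to 0.48 in high protein livers, from -0.51 through -0.08 to 0.69 in high fat livers and from -0.41 through 0.07 to 0.65 in control livers. The groups overlapped almost wholly. High protein livers differed from control livers by 0.10 ± 0.20 (log2, SE, adjusted p = 0.839) and high fat livers by -0.16 ± 0.20, with intervals of -0.31 to 0.52 and -0.57 to 0.26. The first of these intervals reached nearly to the 0.53 seen for Mat1a, so the livers' spread limits what can be said of Bhmt. The other probe gave 0.24 and -0.04. Whether these probes also take up RNA of Bhmt2, a close relative of Bhmt, was not tested.

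Cdo1, cysteine dioxygenase, oxidises cysteine to cysteine sulfinic acid and in rats is known to follow dietary protein mainly through the stability of the enzyme. Its probe (A_44_P165870) lies at chr18:40921357-40921416 on the minus strand of rn4. Cdo1 ran from -0.59 through -0.15 to 0.09 in high protein livers, from -0.20 through -0.12 to 0.49 in high fat livers and from -0.63 through -0.35 to 0.03 in control livers. All 3 groups overlapped, with high fat 4 highest and control 1 lowest. High protein livers differed from control livers by 0.12 ± 0.12 (log2, SE, adjusted p = 0.695), with an interval of -0.14 to 0.38, and 0.18 with slide as a fixed block. For high fat livers the difference was 0.30 ± 0.12 (unadjusted p = 0.0252, adjusted p = 0.229). This was the only member with an unadjusted p under 0.05 in the high fat comparison. Within slides 1, 2 and 3 the difference was 0.48, 0.20 and 0.31, where slides 1 and 3 had a single control each and slide 1 a single high fat liver. Without high fat 4 (0.49) it was 0.20, the lowest over the omissions of a rat.

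Csad, cysteine sulfinic acid decarboxylase, takes that product on towards taurine. Its probe (A_42_P506273) lies at chr7:140918180-140918239 on the minus strand of rn4. Csad ran from -0.61 through -0.42 to 0.06 in high protein livers, from -0.36 through 0.13 to 0.58 in high fat livers and from -0.16 through -0.04 to 0.73 in control livers. Of the 9 members, Csad had the most negative difference between high protein and control livers, -0.46 ± 0.15 (log2, SE, adjusted p = 0.174), with overlap in 2 high protein livers (high protein 1 and high protein 2). Against high fat livers it was -0.48 ± 0.16 (adjusted p = 0.0728). Neither passed the threshold. The second did so without control 2 (-0.48, adjusted p = 0.0372), without high protein 1 (-0.57, adjusted p = 0.0416) or without high fat 1 (-0.58, adjusted p = 0.0256). Within slides 1, 4 and 5 the difference from control was -0.13, -0.14 and -0.80, the last of these with control 6 as its only control. With slide as a fixed block the difference from control livers was -0.28 (adjusted p = 0.364) and that from high fat livers -0.09 (adjusted p = 0.882). High fat and control livers differed by 0.02 (interval -0.30 to 0.34). Csad was also the dimmest member, with a Cy5 signal between 155 and 576, and its values moved with the background correction. The difference from control was -0.39 with normexp on every spot and -0.62 with processed signals. That from high fat livers was -0.41 and -0.71 in these settings, and none of these values passed.

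**Figure D2:**
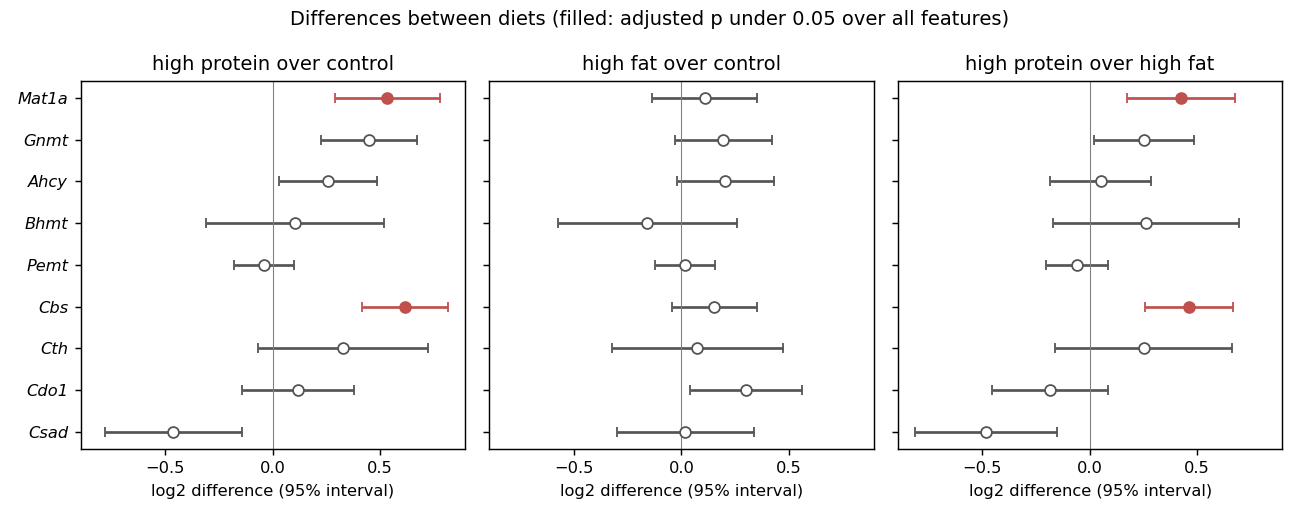
Log2 difference between diets (horizontal axis) of each member with its 95% interval from limma, for high protein over control, high fat over control and high protein over high fat. Filled points passed an adjusted p of 0.05 over all 22258 features, which only Cbs and Mat1a did, in the 2 comparisons with high protein livers on top.

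Livers on 1 diet also differed from each other more in these genes than in most. The pooled SD within a diet was 0.39 for Bhmt, 0.37 for Cth, 0.29 for Csad, 0.24 for Cdo1, 0.22 for Mat1a, 0.21 for Ahcy, 0.20 for Gnmt, 0.18 for Cbs and 0.12 for Pemt. The median over all features was 0.13, and 95.2% of features had a smaller SD than Bhmt, 72.0% than Cbs and 34.6% than Pemt. Pemt was thus the 1 member below the median spread, and Bhmt and Cth were the most variable. Single livers stood out across members: high fat 4 was the highest of 19 livers for Ahcy, Bhmt and Cdo1, and control 6 was the lowest for Mat1a, Cth and Pemt. The members' mean rank over the 19 livers was 14.3 in high fat 4 and 4.78 in control 6.

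Where a gene had 2 probes, these were set against each other liver by liver. The Mat1a probes differed by 0.0680 on average in absolute log2 ratio, and at most by 0.15. The Pemt probes differed by 0.0685 on average and at most by 0.14. These gaps stand beside a within-diet SD of 0.22 for Mat1a and 0.12 for Pemt. The Bhmt probes differed by 0.263 on average and by 0.63 at most (high protein 3), with the brighter probe 0.26 higher on average. Probes of a gene share the animal and the array, so they are no replicates of a diet.

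**Figure D3:**
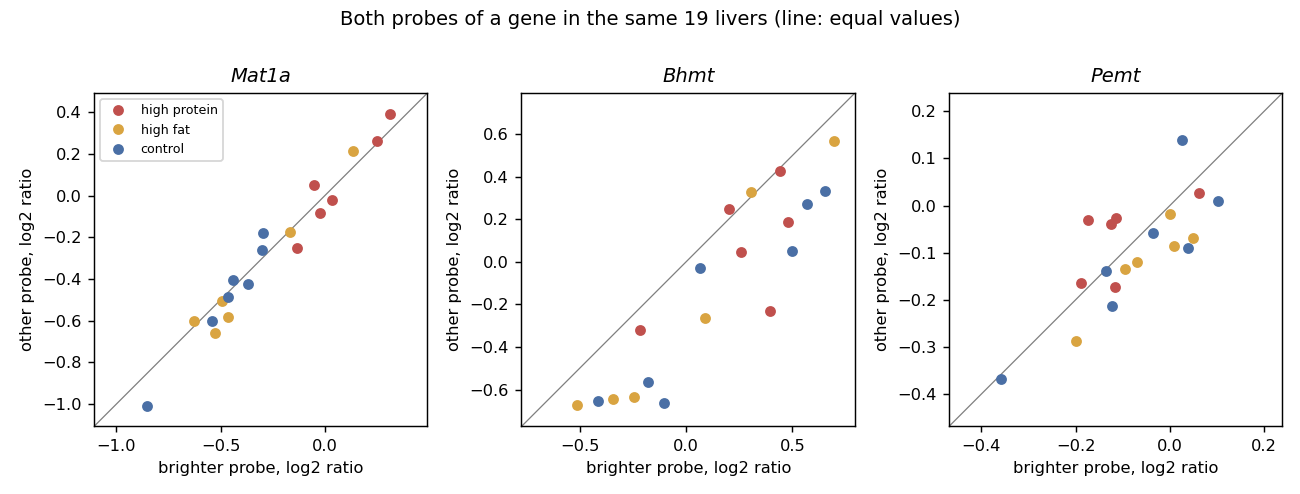
Log2 ratio of the brighter probe (horizontal axis) and of the other probe (vertical axis) of Mat1a, Bhmt and Pemt in each of 19 livers, coloured by diet, with the line of equal values. Mat1a points follow the line within 0.15, while most Bhmt points lie below it, at most by 0.63.

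**Figure D4:**
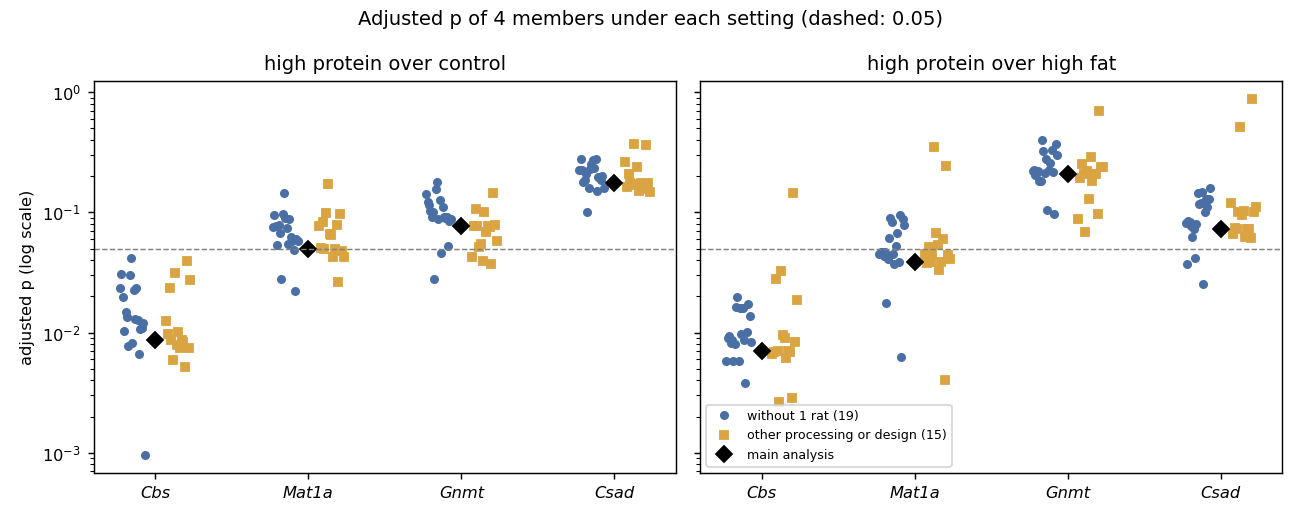
Adjusted p (vertical axis, log scale) of Cbs, Mat1a, Gnmt and Csad in the comparisons of high protein with control and with high fat livers, as reported (diamonds), without each of 19 rats (circles) and under 15 other ways of processing or modelling (squares), with 0.05 dashed. All Cbs points lie under 0.05 against control and all but 1 against high fat, whereas Mat1a points lie on both sides.

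The genes around the members were taken from 7 further lists of 56 genes, of which 49 were measured. In high protein against control livers 2 of 49 rose and 0 fell, with a median of 0.07, where 0.274% of all features were called higher and 0.139% lower. Nnmt, which methylates nicotinamide with S-adenosylmethionine, rose by 0.73 ± 0.13 (log2, SE, limma adjusted p = 0.0179). Got1, a transaminase that also acts on cysteine sulfinic acid, rose by 0.93 ± 0.17 (adjusted p = 0.0236), a call kept in 16 of 19 omissions of a rat (values between 0.86 and 1.00). With slide as a fixed block Got1 stood at 1.07 (adjusted p = 0.0587). For Nnmt and Got1 alike the high protein livers all exceeded the controls. Of 5 measured enzymes of S-adenosylmethionine and S-adenosylhomocysteine outside the members, 0 passed limma's test and 2 had an unadjusted p under 0.05, against 0.413% and 14.3% of all features, so a count of 0 in a list this short is what the background gives. Mat2a, the form of the synthase found outside the adult hepatocyte, differed by -0.20 (adjusted p = 0.320), and Mtr, the folate-dependent enzyme that shares the remethylation of homocysteine with Bhmt, by -0.03 (adjusted p = 0.829). Among 5 measured genes of glutathione synthesis, the other main use of cysteine, 0 passed and 1 had an unadjusted p under 0.05, to be read against the same shares. Gclc, the catalytic subunit of its limiting enzyme, differed by -0.05.

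High fat against control livers showed 1 rise and 4 falls among the 49, with a median of -0.04, where 1.84% of all features were called higher and 1.79% lower. Fmo1, a flavin monooxygenase known in mammals to make taurine from hypotaurine, rose by 1.18 ± 0.20 (log2, SE, limma adjusted p = 0.00195). Ethe1, the mitochondrial persulfide dioxygenase of sulfide disposal, fell by 0.87 ± 0.16 on the log2 scale (adjusted p = 0.00277). In both cases the groups did not overlap. Ahcyl2, a relative of Ahcy, differed by -0.34 ± 0.07 (adjusted p = 0.00986), and its other probe by -0.23 (adjusted p = 0.0176). Sms, spermine synthase, differed by -0.15 ± 0.04 (adjusted p = 0.0325). For Ahcyl2 and Sms too the groups did not overlap, which was so for 1.96% of all features. Of 19 omissions of a rat, 12 kept the Sms call (values between -0.17 and -0.13), and of 13 other settings that measured it 7 did. Its value ran from -0.57 to -0.13 over all of these, and with slide as a fixed block the call was lost at -0.17. The Ahcyl2 call was kept in all 19 omissions and 14 of 15 other settings, at values between -0.63 and -0.25.

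Between high protein and high fat livers 7 of the 49 were higher and 1 lower in high protein livers, with a median of 0.06, where 3.63% of all features were called higher and 3.4% lower. Ethe1 was higher by 1.16 ± 0.17 (log2, SE, limma adjusted p = 0.000214), Got1 by 1.19 ± 0.17 (adjusted p = 0.000272) and Nnmt by 0.89 ± 0.13 (adjusted p = 0.000293). Fmo1 differed by -1.14 ± 0.20 (adjusted p = 0.0019). Smaller rises were those of Pcyt2 (0.34), of the ethanolamine branch of phospholipid synthesis, Gss (0.34), glutathione synthetase, and Mthfd1 (0.48), a folate enzyme, and with slide as a fixed block none of these 3 passed. Their values were then 0.20 for Pcyt2 (adjusted p = 0.463), 0.36 for Gss (adjusted p = 0.223) and 0.63 for Mthfd1 (adjusted p = 0.135), so Pcyt2 was lower under the block while Gss and Mthfd1 were not. Of 19 omissions of a rat, 11 kept the Mthfd1 call (values between 0.41 and 0.55) and 17 the Gss call (between 0.30 and 0.37). The largest differences in cysteine and sulfide handling between these diets were thus in Fmo1, Ethe1 and Got1 and not in Cdo1 or Csad, which did not pass.

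The genes whose pattern was most like that of Cbs, Mat1a and Gnmt were found by the root mean square difference of the log2 ratio over 19 livers, each gene centred on its own mean. Nearest to Mat1a were Uox (urate oxidase, 0.125), Acy1 (aminoacylase, 0.158) and Cps1 (the first enzyme of the urea cycle, 0.160), where Mat1a itself had a root mean square of 0.31 about its mean. For Cbs, also with 0.31, they were Uox (0.169), Slc25a21 (0.169), a mitochondrial carrier of oxodicarboxylic acids, and Dapk3 (0.186), a protein kinase. For Gnmt, with 0.26, they were Myom1 (a sarcomere protein, 0.154), Farp2 (0.164) and Pla2g15 (0.169), a lysosomal phospholipase. Uox thus stood near both Mat1a and Cbs. These are descriptions over livers that share a diet and a reference pool, and a gene that did not vary at all would stand at the member's own root mean square.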

How the data were processed

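Liver RNA of 19 rats was measured on Agilent 4x44K 2-colour arrays, 1 rat an array, with 1000 ng of RNA labelled, per the labels' protocols. Each spot's brightness and that of its surroundings was deposited as intensity, per the file headers, and was read from the scans by Agilent Feature Extraction 10.5.1.1. The authors also deposited log2 values for 22764 probes per array, with a common median of 8.205 and the steps behind them not given in the sources used here. Centred over arrays, these followed the log ratios (r between 0.917 and 0.976 across features), so higher means higher in the animal. They served as an alternative.

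Probes were named through RefSeq annotation: of 41012, 10928 by accession, 5188 by symbol, 3481 by synonym and 149 by the file's own name, and 21266 had none. Intensities were background-corrected by normexp (offset 50), and log2 ratios were normalised by loess within arrays. Left out of that fit were 40 spots on 5 arrays with a background over 50 above the signal, and outlier spots were dropped. Probes well above background in Cy5 on at least 6 of 19 arrays were kept (25313), and the brightest kept probe stood for a gene, which gave 22258 features. These were tested with limma 3.58.1 in R 4.3.3, as 1 model over the 3 diets with 16 residual and 3.229 prior degrees of freedom, two-sided, with Benjamini-Hochberg adjustment over all features and a threshold of 0.05. All kept probes were fitted the same way for the values of further probes. The test was tried on simulated data before use. The number of arrays limits the precision.

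Every member and probe is named, and from the other lists the genes that passed a test, with a few that did not shown as examples. A single-gene result is not reported here, though it stays in the counts. The members and lists were chosen with earlier results of these data known. Alternatives changed background, normalisation, channel, filter, probe choice, array weights, slide and replicate blocks, or left out 1 rat. Same-numbered rats did not deviate together, so no pairing was used. Which exon or untranslated region a probe lies in was not looked up. Promoters are those of RefSeq for GRCr8 and were not set against the rn4 probe positions.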

Additional observations from a re-analysis of the deposited data

Results flagged for a closer look

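In 4 of 60 groups of livers tested (36 of member probes and 24 of cell type marker medians), 1 liver stood apart from its group by Dixon's criterion, and chance gives about 1 in 20. Csad was 0.73 in control 2, the highest of the controls, whose others reached 0.21. Without control 2 the difference between high protein and control livers was -0.36 (adjusted p = 0.279). The brighter Pemt probe was 0.063 in high protein 1, above the other high protein livers, which reached -0.11. The median of the lymphocyte markers was 2.26 in control 6, where the other controls lay between -1.13 and -0.60. That liver had the lowest Mat1a, Cth and Pemt values, and without it the differences between high protein and control livers were 0.47 for Mat1a, 0.25 for Cth and -0.088 for Pemt. The median of the cholangiocyte markers was 0.35 in high protein 2.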

How the results depend on the processing

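Beside 19 omissions of a rat, 15 other settings were run. In 2 of these, Aquantile after loess and saturated spots left out, the log ratios tested were the same as reported. Against control, high fat livers had 0 members called in all 34. High protein livers against control had 1 member in place of 2 with no background subtraction, processed signals, median centring, Cy5 alone, no filter, the mean of a gene's probes or slide as a fixed block, 3 with array weights (Gnmt added, with 238 features called in place of 92), and 1 to 3 members without 1 rat. High protein against high fat livers had 1 in place of 2 with processed signals, Cy5 alone, the deposited values, no filter or the mean of probes, 0 with slide as a fixed block, and 1 to 3 without 1 rat. The F test had 1 in place of 3 with slide as a fixed block, 2 with processed signals (Gnmt lost) or Cy5 alone (Mat1a lost), and 2 to 4 without 1 rat. The changes were mostly those of Mat1a near the threshold. Gnmt passed against control with normexp on every spot (0.51), the deposited values (0.60) and array weights (0.48). With normexp on every spot the count against control stayed at 2, but as Cbs and Gnmt, with Mat1a lost (limma adjusted p = 0.0779). Mat1a was called against control in 6 of the 15 other settings. Features called in high protein against control livers numbered 17 to 375 without 1 rat: 375 without control 7, and 60 or fewer without control 1, 2, 5 or 6 or high protein 1, 2, 4 or 6. With slide as a fixed block they numbered 20. They numbered 92 with no background subtraction, 55 with normexp on every spot, 42 with processed signals, 31 with median centring and 45 with Cy5 alone. Between high protein and high fat livers, 1383 features were called with processed signals and 1254 with Cy5 alone, in place of 1565. Among the other settings with fewer members called and a total given here, the total was also lower, except with no background subtraction. Members called stayed at 2 with normexp on every spot, where 55 features were called against control. They also stayed at 2 between high protein and high fat livers with median centring, where 1264 features were called. Whether the counts are linked was not tested. Signs turned only for members that were not called. Against control, high protein livers turned for Pemt with normexp on every spot (0.0148), median centring (0.0244), the deposited values (0.072) and the slide block (0.0177), and for Bhmt with the slide block (-0.079). High fat livers turned against control for Csad with median centring (-0.053), Cy5 alone (-0.14), the slide block (-0.19) and the replicate block (-0.026), for Pemt with median centring (-0.0098), array weights (-0.038) and the slide block (-0.057), and for Bhmt with the slide block (0.0131). High protein over high fat turned for Pemt with median centring (0.0342) and the slide block (0.0743), and with the slide block for Ahcy (-0.14) and Bhmt (-0.092). Without 1 rat, Csad and Pemt in high fat against control livers ran from -0.071 to 0.12 and from -0.029 to 0.048, and Ahcy in high protein against high fat livers from -0.020 to 0.15. The cause of these turns was not tested. With replicate number as a block the members called stayed at 2, 0, 2 and 3, with 162, 650 and 1401 features called in the 3 comparisons. The 18 like-numbered pairs had a mean correlation of -0.0102, against 0.00124 for 102 unlike-numbered pairs, and for 5 of 19 rats the closest rat was a like-numbered one.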

Other observations

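In 3 neighbouring lists no gene passed limma's test in high protein against control livers, and in high fat against control livers Sms alone did. Over all features 0.413% passed in high protein and 3.63% in high fat livers, so a count of 0 that passed in lists this short is what the background gives. An unadjusted p under 0.05 was held by 14.3% and 15.8% of all features. Of 9 measured genes of remethylation, betaine and folate, 0 passed in high protein or high fat livers, and 2 in each had an unadjusted p under 0.05. Shmt1, which moves a carbon unit from serine to folate, differed by 0.25 ± 0.09 between high fat and control livers (log2, SE, limma adjusted p = 0.172). The choline and ethanolamine branches of phospholipid synthesis, taken as 1 list, had 8 measured genes, and 0 passed in high protein or high fat livers. Of these 8, 2 and 5 had an unadjusted p under 0.05, and the 5 of 8 in high fat livers lay above the 15.8% of all features. Etnk2, of the ethanolamine branch, was among them in both comparisons, higher by 0.25 in high protein and 0.31 in high fat livers (limma unadjusted p = 0.00994 and 0.0026). Pcyt2, of the same branch, was so in high fat livers (0.00249) but in the other direction, with a difference of -0.28. Of the 5 in high fat livers, Etnk2 and Chpt1 were higher than in control livers, and Chka, Chkb and Pcyt2 were lower. The choline branch supplies the lipid that Pemt also makes. Chka, choline kinase, differed by -0.62 ± 0.23 between high fat and control livers (adjusted p = 0.159). Of 9 measured genes of methionine salvage and polyamines, 0 passed in high protein against control livers and 1 had an unadjusted p under 0.05. In high fat against control livers 1 of them passed, Sms, which was lower, as given above.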
